A study of Mus musculus with 12 samples.

Results

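Transcripts of 10 genes used as markers of the glial and posterior lobe tissue of the pituitary were followed in tumors of POMC KO mice and in normal mouse pituitary. The genes were Slc1a3, S100b, Gfap, Vim, Nkx2-1, Rax, Avp, Oxt, Aldh1a1 and Cd9. They were read on all probe sets (groups of short oligonucleotide probes that measure 1 transcript) of the Affymetrix Mouse Genome 430 2.0 array whose annotation named 1 of these genes and no other gene. This gave 20 of the 45101 probe sets on the array and 10 of the 18194 genes. Of the 20 probe sets, 12 were tested, and the other 8, which include all those of Gfap, Nkx2-1 and Rax, had too low a signal.

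The samples were 8 arrays of pituitary tumor from mice heterozygous for the POMC knockout, 2 arrays of tumor from homozygous POMC KO mice and 2 arrays of normal mouse pituitary, none of them treated. Age, sex and strain of these mice and the design of the knockout allele are not given in the sources used here. The methods of the study name pooled normal mouse pituitary as the reference, and whether each normal array holds a pool or a single gland is not settled here. The knockout is carried by the whole animal, and the tumors in this model appear spontaneously.

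Tumor arrays with neighbouring numbers formed 5 close pairs, and within a pair at most 2 probe sets differed more than 2-fold, against at least 368 between heterozygous pairs and 242 between the normal arrays. Each pair was averaged and counted as 1 sample, which gave 4 heterozygous samples (arrays 1-2, 3-4, 5-6 and 7-8), 1 homozygous sample and 2 normal samples. The spread of the single homozygous sample was taken to be that of the other groups, and p-values measure the spread between these samples only. GEO's design text counts each array as 1 mouse, which the averaging departs from, and the 12 arrays taken separately are an alternative. Pomc had a log2 signal of 7.18 in the homozygous sample, between 15.15 and 15.30 in the heterozygous samples and 15.08 and 15.11 in the normal samples. Xist, the RNA of the inactive X chromosome of female cells, was high (10.93 to 11.25) in heterozygous samples 3-4 and 7-8 and in the homozygous sample, and low (4.57 to 5.07) in heterozygous samples 1-2 and 5-6 and in both normal samples. Eif2s3y, a gene of the Y chromosome, read 8.62 to 8.89 in the low-Xist samples and 3.37 to 3.66 in the high-Xist samples. By both genes the low-Xist samples read as male and the high-Xist samples as female. Sex and genotype thus cannot be told apart between the homozygous sample and normal pituitary, for any gene. With the low-Xist heterozygous samples alone, 6 member probe sets were called lower than in normal pituitary, as with all 4 samples.

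The mouse pituitary has 3 lobes. The posterior lobe holds pituicytes, a glial cell type related to astrocytes, and the axon endings of hypothalamic neurons that store and release vasopressin and oxytocin. The intermediate lobe holds melanotrophs, and the anterior lobe holds the other hormone cells and the folliculostellate cells, which are star-shaped support cells that share several markers with glia. Messenger RNA of Avp and Oxt is made in the hypothalamic cell bodies, and some of it is carried along the axons into the posterior lobe.

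Against normal pituitary, transcripts of Slc1a3, Avp, Oxt and Aldh1a1 fell in heterozygous tumors, by 3.71-fold to 9.35-fold. In the homozygous tumor, a single sample, Slc1a3 fell. Avp and Oxt lay within 1.69-fold of normal and Aldh1a1 2.055-fold below it, and these 3 did not pass the test. In the direct comparison of the tumor genotypes only Oxt was called, close to the threshold. Vim and Cd9 were higher in all 4 heterozygous samples than in either normal sample, and their group means differed from normal by less than 2-fold. S100b did not pass the test, and it was under the median signal of the arrays in every sample but heterozygous 1-2. Gfap, Nkx2-1 and Rax were under that median in every sample, normal pituitary included. Rax nevertheless read lower in all tumor samples than in both normal samples.

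A probe set was tested when 2 or more arrays reached a log2 signal of 5.743, the median of all values, and was called when its fold change was above 2 and its adjusted p from limma below 0.05. In heterozygous tumors 6 of the 12 tested member probe sets were called lower, where 3.77% of all 24486 tested probe sets were, and 0 were called higher, where 4.91% were. Of the same 12, 3 were called lower in the homozygous tumor (1.07% of all) and 0 higher (1.26% of all). Between the tumor genotypes 1 was called higher in the homozygous tumor (0.212% of all) and 0 lower (0.0368% of all). An adjusted p under 0.05 without the demand on fold was reached by 10, 3 and 1 of the 12. The median log2 difference of the 12 was -0.99 in heterozygous tumors and -0.33 in the homozygous tumor, against 0.028 and 0.0078 over all tested probe sets. The 12 are not independent, since Slc1a3 holds 4 of them and Vim 3. Of those of Slc1a3, 2 passed the filter only through the normal arrays. The 10 genes were chosen with earlier results of these data known, so these counts describe them and are no independent support.

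**Figure D1:**
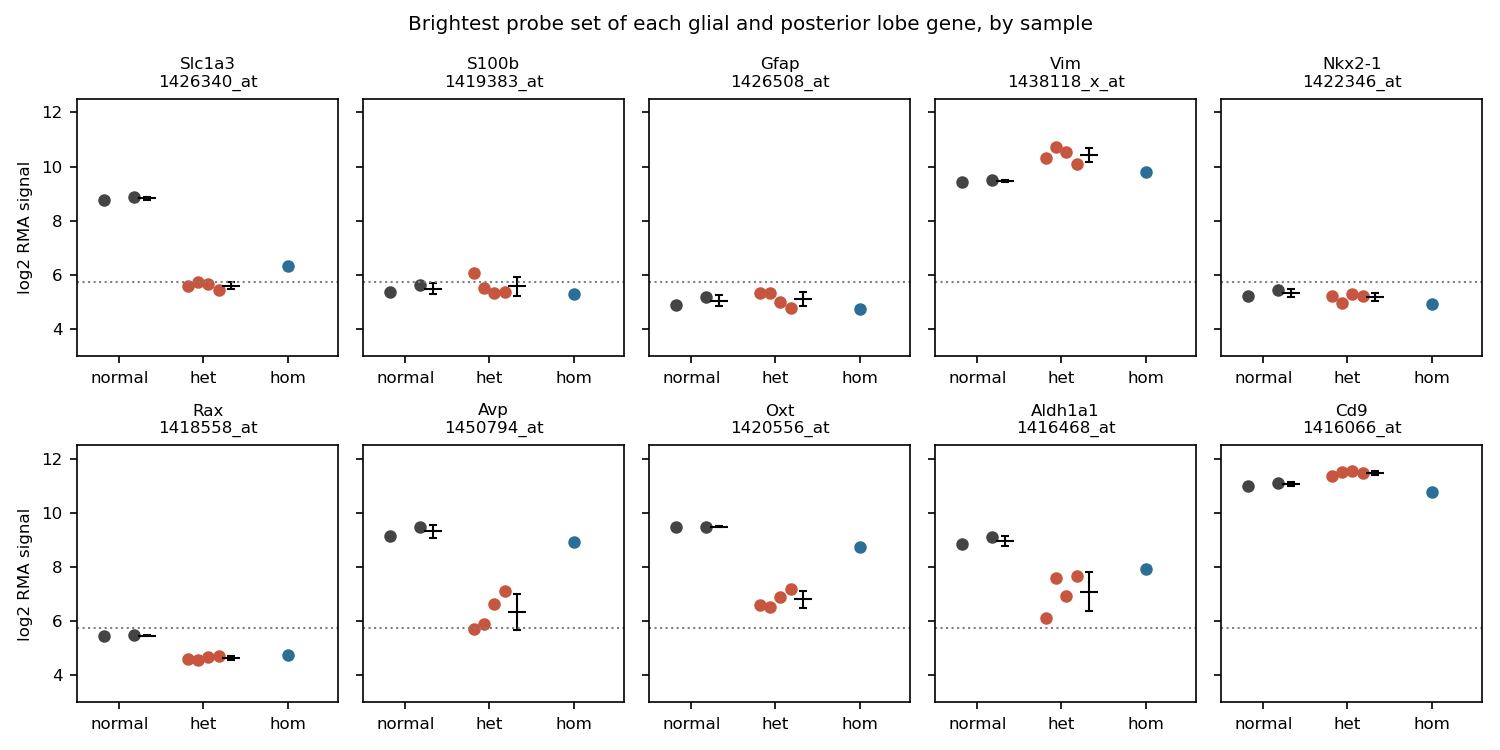
Log2 signal (RMA values, y axis) of the brightest probe set of each of the 10 genes in the 2 normal, 4 heterozygous (het, left to right 1-2, 3-4, 5-6, 7-8) and 1 homozygous (hom) samples. Points are samples, the horizontal mark with its bar is the mean ± SD of a group, and the dotted line is the median of all values, 5.743. Slc1a3, Avp, Oxt, Aldh1a1 and Rax lie lower in every heterozygous sample than in both normal samples, and Vim and Cd9 lie higher. Rax lies under the dotted line in every sample and was not tested.

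Slc1a3 encodes the glutamate and aspartate transporter GLAST, which clears glutamate around astrocytes and other glia. The log2 signal of its brightest probe set, 1426340_at, was 8.78 and 8.87 in the normal samples, 5.57, 5.71, 5.67 and 5.43 in heterozygous samples 1-2, 3-4, 5-6 and 7-8, and 6.31 in the homozygous sample. All 5 tumor samples were below both normal samples, and the homozygous sample lay above every heterozygous one. The mean was 8.82 ± 0.06 (SD, n = 2) in normal pituitary and 5.60 ± 0.12 (SD, n = 4) in heterozygous tumors. This was a fall of 9.35-fold in heterozygous tumors (log2 difference -3.23 ± 0.12 SE, adjusted p = 9.41e-05 from limma). The homozygous tumor had a fall of 5.71-fold (log2 difference -2.51 ± 0.17 SE, adjusted p = 0.00323 from limma). Between the tumor genotypes the log2 difference was 0.71 (95% confidence interval 0.34 to 1.08), which did not pass the test over all probe sets (adjusted p = 0.204 from limma). In bulk tissue fewer cells of a type and less RNA per cell cannot be told apart.

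The Slc1a3 probe sets did not all behave alike. On 1426341_at the normal samples read 7.26 and 7.65, the heterozygous samples 5.04 to 5.17 and the homozygous sample 5.38. On 1452031_at the normal samples read 6.94 and 6.92, the heterozygous samples 4.39 to 4.68 and the homozygous sample 4.83. Both were lower in every tumor sample, and both passed the filter on low signal through the normal arrays alone, so passing it already required a difference from the tumors. Their log2 differences were -2.36 and -2.41 in heterozygous tumors (adjusted p = 0.000237 and 0.000175 from limma). For the homozygous tumor they were -2.07 and -2.09 (adjusted p = 0.00632 and 0.00438 from limma). Probe set 1443749_x_at, whose suffix marks probes that may also bind other transcripts, read 5.80 and 5.87 in normal samples, 5.44 to 6.08 in heterozygous samples and 5.87 in the homozygous sample. Its groups overlapped, and its log2 difference in heterozygous tumors was -0.09 (95% confidence interval -0.51 to 0.32, adjusted p = 0.74 from limma). The remaining 1439072_at and 1440491_at read at most 3.93 on any array and were not tested. The mean over the 4 tested probe sets of the gene fell by 2.02 on the log2 scale in heterozygous tumors.

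**Figure D2:**
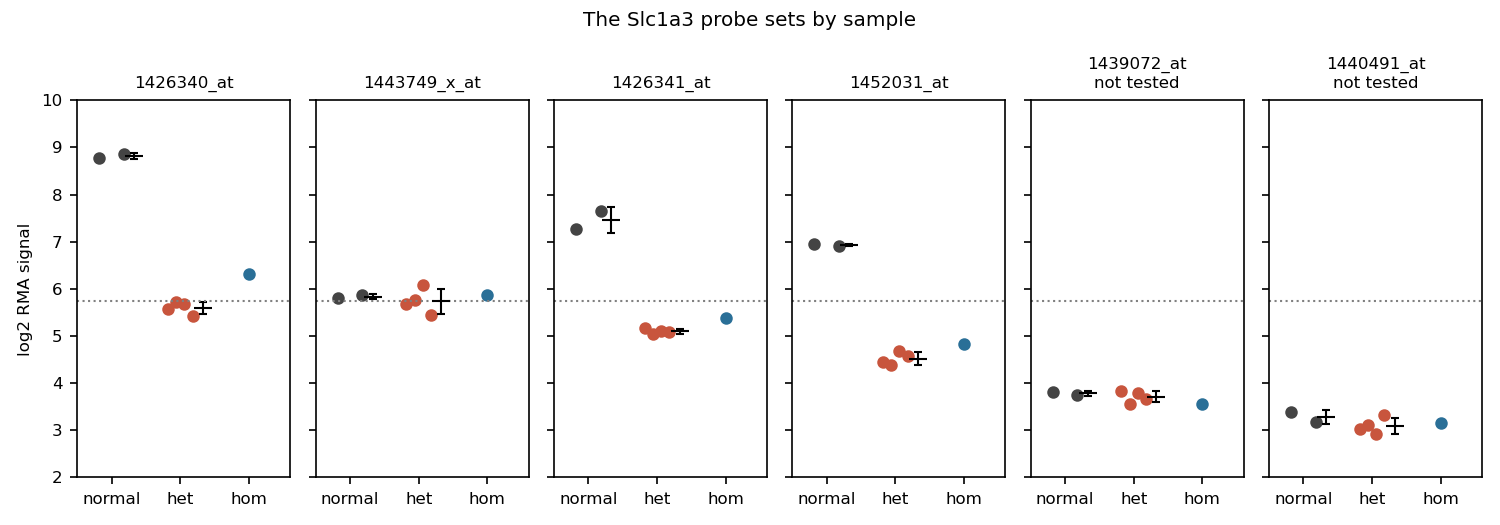
Log2 signal (RMA values, y axis) of the Slc1a3 probe sets in the normal, heterozygous (het) and homozygous (hom) samples. Points are samples, marks with bars are mean ± SD, and the dotted line is the median of all values, 5.743. Of the probe sets, 1426340_at, 1426341_at and 1452031_at are lower in all tumor samples, while 1443749_x_at and the 2 untested probe sets show overlapping groups.

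S100b encodes a calcium-binding protein of astrocytes and is the usual marker of folliculostellate cells. Its probe set 1419383_at read 5.35 and 5.63 in the normal samples, 6.07, 5.52, 5.33 and 5.37 in the heterozygous samples in the order above, and 5.29 in the homozygous sample. Heterozygous sample 1-2 was the highest of all and the groups overlapped. The log2 difference from normal was 0.09 in heterozygous tumors (95% confidence interval -0.43 to 0.61, adjusted p = 0.812 from limma). For the homozygous tumor it was -0.20 (95% confidence interval -0.93 to 0.54, adjusted p = 0.791 from limma). The second probe set, 1434342_at, read 5.50 in heterozygous sample 1-2 and 3.78 to 4.56 in the other samples, and was not tested.

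Gfap encodes the intermediate filament protein that marks astrocytes, and in the posterior lobe it is found in some pituicytes. None of its 3 probe sets was tested, and their highest single array was 5.48. On the brightest, 1426508_at, the normal samples read 4.89 and 5.19, the heterozygous samples 5.31, 5.33, 4.99 and 4.77, and the homozygous sample 4.74. The groups overlapped on all 3 probe sets. With no filter on low values the adjusted p from limma for heterozygous tumors was 0.878, 0.977 and 0.891. Gfap thus stayed under the median of all values in normal pituitary too, where the Avp and Oxt signals were high.

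Vim encodes vimentin, the intermediate filament protein of mesenchymal cells, endothelium, macrophages and many glia. On 1438118_x_at the normal samples read 9.43 and 9.50, the heterozygous samples 10.31, 10.72, 10.55 and 10.11, and the homozygous sample 9.79. The suffix of this probe set also marks probes that may bind other transcripts. Every heterozygous sample was above both normal samples on all 3 probe sets, and the homozygous sample was above both on 1438118_x_at and 1456292_a_at and below both on 1450641_at. The log2 differences in heterozygous tumors were 0.96, 0.78 and 0.97 on 1438118_x_at, 1450641_at and 1456292_a_at (adjusted p = 0.00966, 0.0224 and 0.00644 from limma). The folds were 1.94, 1.72 and 1.96, under the threshold of 2, so none was called. For the homozygous tumor the differences were 0.33, -0.12 and 0.31 (adjusted p = 0.553, 0.859 and 0.537 from limma). Without heterozygous sample 7-8, the lowest of the group, the log2 difference on 1438118_x_at was 1.06 (adjusted p = 0.0045 from limma) and was called. Markers of several cells that carry vimentin, given below, were read in heterozygous tumors. Over all tested genes 4.55% were called lower there and 5.56% higher. Of 11 tested macrophage and microglia markers 8 rose and 0 fell. Of 9 fibroblast and pericyte markers 1, Acta2, rose and 3 fell, and of 9 endothelial markers 0 rose and 1 fell. The part of any of these cells in the Vim signal was not tested.

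Nkx2-1 and Rax encode homeobox transcription factors that are needed where the hypothalamus gives rise to the posterior lobe, and Rax is kept on in pituicytes. Nkx2-1 read 5.21 and 5.43 in the normal samples, 4.94 to 5.27 in the heterozygous samples and 4.93 in the homozygous sample. It was not tested, and with no filter its log2 difference was -0.16 in heterozygous tumors (adjusted p = 0.479 from limma). Rax read 5.46 and 5.48 in the normal samples, 4.61, 4.55, 4.68 and 4.73 in the heterozygous samples and 4.75 in the homozygous sample. All 5 tumor samples lay under both normal samples, and none of the 12 arrays reached the median of all values, so Rax was not tested. With no filter on low values, its log2 difference was -0.82 in heterozygous tumors (SE 0.10, adjusted p = 0.00195 from limma), a fold of 1.77 that was not called. The homozygous value was -0.72 (SE 0.14, adjusted p = 0.0508 from limma).

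Avp and Oxt encode the precursors of vasopressin, which makes the kidney retain water, and of oxytocin, which contracts the uterus and ejects milk. The genes are neighbours on chromosome 2 and are read towards each other. The 250 bases before each gene's start, from RefSeq on GRCm38.p6, are printed because both transcripts fell in heterozygous tumors, and the capitals mark the longest run of bases that both share in the same orientation.
Avp, chr2:130582589-130582838, minus strand: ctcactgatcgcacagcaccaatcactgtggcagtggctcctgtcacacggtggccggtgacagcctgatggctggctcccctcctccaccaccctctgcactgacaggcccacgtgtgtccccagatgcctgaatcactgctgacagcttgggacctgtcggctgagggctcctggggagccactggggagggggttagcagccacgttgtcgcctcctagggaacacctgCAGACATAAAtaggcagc
Oxt, chr2:130575919-130576168, plus strand: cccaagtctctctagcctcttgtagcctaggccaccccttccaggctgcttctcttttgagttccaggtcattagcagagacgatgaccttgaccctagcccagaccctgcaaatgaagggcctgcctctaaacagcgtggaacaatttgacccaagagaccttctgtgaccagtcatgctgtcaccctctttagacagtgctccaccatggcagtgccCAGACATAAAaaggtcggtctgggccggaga

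The shared run of 10 bases, CAGACATAAA, begins 18 bases before the start of Avp and 31 bases before that of Oxt. On either strand it is held by 18 of 32851 mouse promoters of the same length (0.0548%). TGACC, the core of a site that several nuclear receptors bind, occurs 5 times in the Oxt window on both strands together and 0 times in that of Avp. At least 1 copy is held by 35.2% of promoters and 4 or more by 85 of them (0.259%). None of the 5 overlaps the shared run. These are letter matches in a window and say nothing of binding. Of the 10 genes, 9 had a promoter in the RefSeq table.

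Avp (1450794_at) read 9.16 and 9.49 in the normal samples, 5.71, 5.92, 6.63 and 7.12 in heterozygous samples 1-2, 3-4, 5-6 and 7-8, and 8.94 in the homozygous sample. The heterozygous samples were all far below normal and spread over more than 1 log2 unit, while the homozygous sample lay just under both normal samples. In heterozygous tumors Avp fell 7.90-fold (log2 difference -2.98 ± 0.38 SE, adjusted p = 0.00218 from limma). The homozygous sample differed from normal by -0.39 on the log2 scale (95% confidence interval -1.65 to 0.87, adjusted p = 0.757 from limma). The difference between the tumor genotypes was 2.59 (95% confidence interval 1.44 to 3.74), and it did not pass the test over all probe sets (adjusted p = 0.153 from limma). Without heterozygous sample 7-8 that difference was 2.85 and was called (adjusted p = 0.0217 from limma). Arrays of 1 pair differed by up to 0.81 for Avp. By the one-way analysis of variance that the study's methods name, a test over all 3 groups at once, the adjusted p for Avp was 0.0874.

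Oxt (1420556_at) read 9.49 and 9.50 in the normal samples, 6.59, 6.54, 6.89 and 7.20 in the heterozygous samples in the same order, and 8.74 in the homozygous sample. As with Avp, the heterozygous samples were lowest, with 5-6 and 7-8 above 1-2 and 3-4, and the homozygous sample lay between the groups. Oxt fell 6.46-fold in heterozygous tumors (log2 difference -2.69 ± 0.20 SE, adjusted p = 0.000354 from limma). The homozygous sample differed from normal by -0.75 on the log2 scale (95% confidence interval -1.40 to -0.10, adjusted p = 0.212 from limma). It was higher in the homozygous tumor than in heterozygous tumors by 3.83-fold (log2 difference 1.94 ± 0.25 SE, adjusted p = 0.0419 from limma), and was the only tested member probe set called in that comparison. The call was close to the threshold and held in 10 of 18 other settings. Not all of these test it anew. Among them, the analysis of variance tests all groups at once, and the mean over probe sets rests on the same single probe set. The 12 separate arrays and the replicate block count the arrays of a pair as separate samples. It was lost without heterozygous sample 1-2, 3-4 or 5-6 (adjusted p = 0.0989, 0.0924 and 0.0894 from limma) and without either normal sample (0.135 in both cases). Among the high-Xist tumor samples alone the difference was 1.87 (adjusted p = 0.131 from limma). The comparisons of both genotypes with normal pituitary share the normal samples.

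Aldh1a1 encodes an enzyme that makes retinoic acid from retinaldehyde. Its probe set 1416468_at read 8.85 and 9.11 in the normal samples, 6.14, 7.61, 6.94 and 7.67 in the heterozygous samples and 7.94 in the homozygous sample. All tumor samples were below both normal samples, and the low-Xist heterozygous samples 1-2 and 5-6 were below the high-Xist samples 3-4 and 7-8. Aldh1a1 fell 3.71-fold in heterozygous tumors (log2 difference -1.89 ± 0.41 SE, adjusted p = 0.0172 from limma), and with the low-Xist heterozygous samples alone the log2 difference was -2.44 (adjusted p = 0.00354 from limma). The call was lost without normal sample 1 (-2.02, adjusted p = 0.0869 from limma), without normal sample 2 (-1.76, adjusted p = 0.11 from limma) and by one-way analysis of variance over the 3 groups (adjusted p = 0.216). For the homozygous tumor the log2 difference was -1.04 (95% confidence interval -2.41 to 0.33, adjusted p = 0.404 from limma), and between the tumor genotypes it was 0.85 (adjusted p = 0.731 from limma). Adding the Xist signal to the fit as a covariate gave -2.17 (adjusted p = 0.0583 from limma) and 0.28 (adjusted p = 0.958 from limma). The homozygous sample was high in Xist and both normal samples were low, so the Xist level and the genotype cannot be told apart between them.

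Cd9 encodes a tetraspanin, a membrane protein that is widely expressed and is found on pituitary stem and folliculostellate cells. Its probe set 1416066_at read 11.01 and 11.12 in the normal samples, 11.38, 11.53, 11.54 and 11.48 in the heterozygous samples and 10.79 in the homozygous sample. The heterozygous samples were above normal and the homozygous sample was below it. The log2 difference in heterozygous tumors was 0.42 (adjusted p = 0.0327 from limma), a fold of 1.34 that was not called. The homozygous value was -0.28 (95% confidence interval -0.64 to 0.09, adjusted p = 0.403 from limma). Between the tumor genotypes it was -0.70 (95% confidence interval -1.03 to -0.37, adjusted p = 0.176 from limma).

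**Figure D3:**
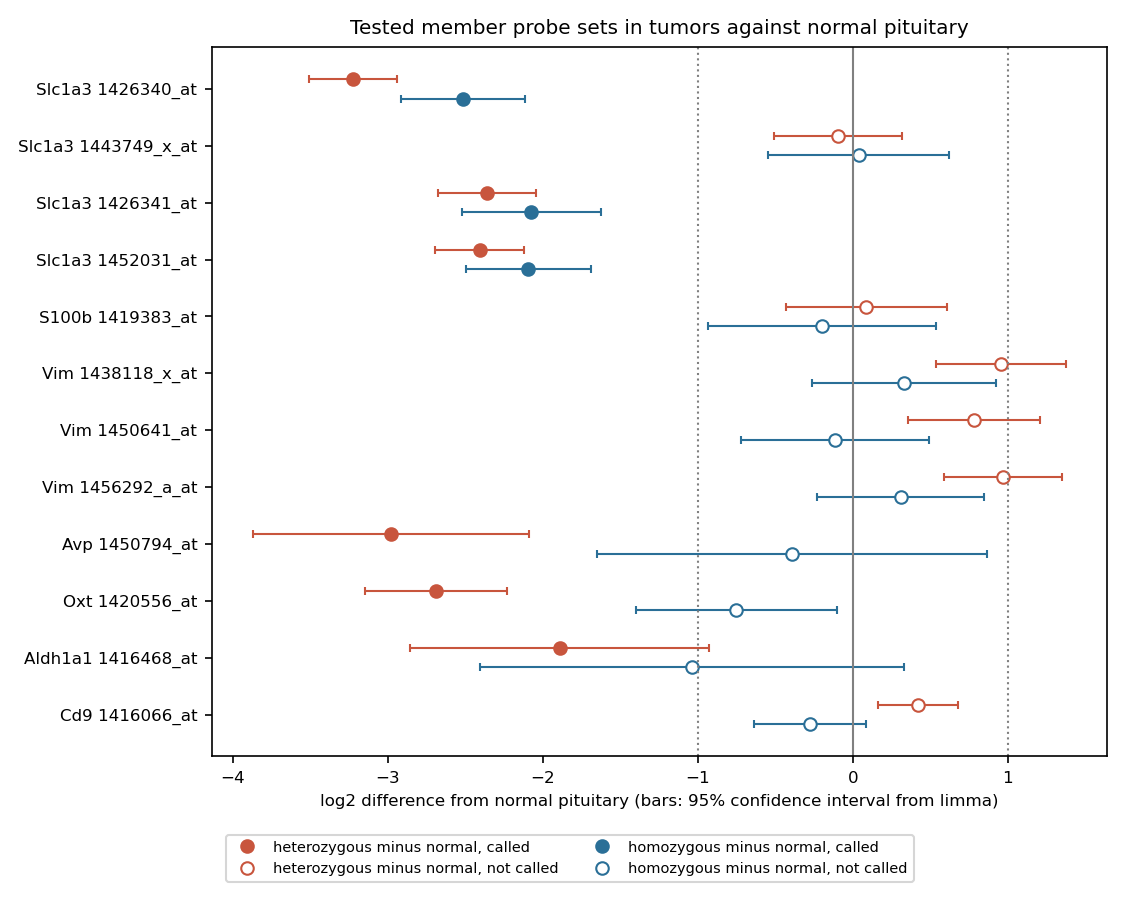
Log2 difference from normal pituitary (x axis) of the 12 tested member probe sets in heterozygous and homozygous tumors, with 95% confidence intervals from limma. Filled points were called, open points were not, and dotted lines mark a fold of 2. The 3 lower Slc1a3 probe sets are called in both genotypes. Avp (-2.98 against -0.39), Oxt (-2.69 against -0.75) and Aldh1a1 (-1.89 against -1.04) are called in heterozygous tumors alone. In the direct comparison of the tumor genotypes, not drawn here, only Oxt was called.

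Of the 12 tested member probe sets, 3, all of 1 gene, Slc1a3, were called in both genotypes, against 468 of all 24486 tested probe sets. All but the brightest of these 3 passed the filter on low signal through the normal arrays alone. Both comparisons use the same normal samples, so a call in both genotypes does not rest on separate references. Among the member genes called lower in heterozygous tumors, the group means were highest in normal, then homozygous, then heterozygous samples. This held for 1426340_at of Slc1a3, Avp, Oxt and Aldh1a1. The order was not particular to these genes. The anterior lobe hormone genes Tshb, Lhb and Fshb, also called lower in heterozygous tumors, shared it. So did Col25a1, Scn7a, Slc1a2, Mlc1, Gja1 and Dio2 among the other glial genes called lower there, while Aldh1l1 and Aqp4 did not. The folliculostellate and stem cell genes called lower there, Aldh1a2, Mia, Rbpms, Gstm1, Fxyd1, Cyp2f2 and Cdh26, all shared it. For Avp, Oxt and Aldh1a1 the difference between the homozygous sample and normal pituitary did not pass the test, and for Slc1a3, Avp and Aldh1a1 that between the tumor genotypes did not.

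Other genes of pituicytes and astroglia were read from a list of 18, of which 17 were tested, each by its brightest tested probe set. The list was chosen with earlier results of these data known, so its counts are a description and no independent support. In heterozygous tumors 8 of the 17 fell and 0 rose, against 4.55% lower and 5.56% higher of all 12316 tested genes, and their median log2 difference was -0.71 against 0.0016 over all genes. In the homozygous tumor 1 of the 17, Aldh1l1, a folate enzyme used as an astrocyte marker, fell (1.32% of all genes), 0 rose (1.44% of all), and the median was -0.67 against -0.03. Aldh1l1 read 6.31 and 6.33 in the normal samples and at most 5.33 in the tumor samples, so it passed the filter on low signal through the normal arrays alone. Col25a1, a membrane collagen of neurons and pituicytes, read 8.77 and 8.93 in the normal samples and 5.19 to 6.07 in the heterozygous samples, a log2 difference of -3.07 (adjusted p = 0.000485 from limma). Scn7a, a sodium-sensing channel of glia, had a log2 difference of -2.0 (adjusted p = 0.00619 from limma) and Slc1a2, the glutamate transporter GLT-1 that works beside GLAST, -1.94 (adjusted p = 0.00523 from limma). Their homozygous values were -1.40, -1.26 and -0.67, none called. The other 5 that fell in heterozygous tumors were Mlc1, Gja1, Dio2, Aldh1l1 and Aqp4, and the 9 that were not called were Lhx2, Glul, Fabp7, Ndrg2, Sox9, Nfia, Apoe, Clu and Cxcl14. Lhx2, a transcription factor of pituicytes, had a log2 difference of -0.71 (adjusted p = 0.365 from limma) and Fabp7, a fatty acid binding protein of glia, of -0.04 (adjusted p = 0.965 from limma).

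A list of 14 folliculostellate and stem cell genes, 13 of them tested, was mixed. It too was chosen with earlier results of these data known. In heterozygous tumors 7 fell and 2 rose, Lcn2 and Anxa1, an annexin that dampens inflammation. Over all 12316 tested genes 4.55% were called lower there and 5.56% higher. The median of the list was -1.16, against 0.0016 over all genes. Mia, a secreted protein, had a log2 difference of -3.32 (adjusted p = 0.0152 from limma), Cyp2f2, a cytochrome enzyme, of -3.20 (adjusted p = 0.0215 from limma) and Aldh1a2, another retinaldehyde dehydrogenase, of -2.90 (adjusted p = 0.000536 from limma). In the homozygous tumor Fxyd1, a subunit of the sodium pump, fell, Lcn2, a secreted iron-binding protein, rose, and the median was -0.87. Over all genes 1.32% were called lower in that tumor and 1.44% higher, with a median of -0.03. Mia and Cyp2f2 varied more among heterozygous samples than Aldh1a1 (SD 1.25 and 1.32 against 0.72, n = 4), at 6.11 to 9.08 and 5.56 to 8.56, with 1-2 lowest and 7-8 highest for both. Sox2, the transcription factor of pituitary stem cells, had a log2 difference of 0.26 in heterozygous tumors (adjusted p = 0.397 from limma).

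**Figure D4:**
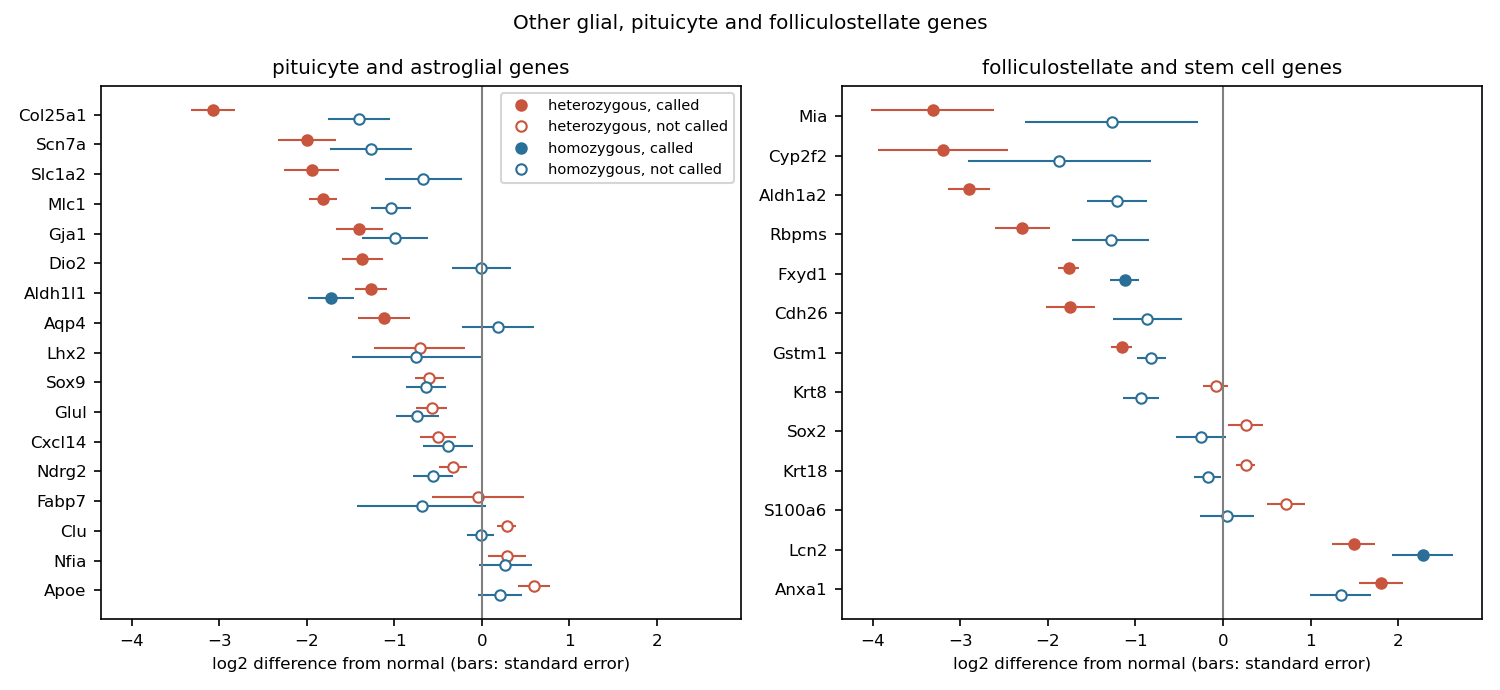
Log2 difference from normal pituitary (x axis), with standard errors, of the tested pituicyte and astroglial genes and of the tested folliculostellate and stem cell genes, ordered by the difference in heterozygous tumors. Filled points were called. In heterozygous tumors 8 of 17 and 7 of 13 lie lower and called, and Lcn2 and Anxa1 lie higher and called. Over all tested genes 4.55% were called lower there and 5.56% higher.

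Markers of other tissue in the gland moved in both directions beside these genes. Over all 12316 tested genes 4.55% were called lower and 5.56% higher in heterozygous tumors, and 1.32% and 1.44% in the homozygous tumor. Of 6 anterior lobe hormone genes, 3 (Tshb, Lhb and Fshb) fell in heterozygous tumors, with a median of -3.04. Gh, Cga and Prl had log2 differences of -0.70, -2.19 and -0.25 there and were not called (adjusted p = 0.196, 0.0612 and 0.566 from limma). For the homozygous tumor the median of the 6 was -0.93. Their summed linear signal was 102002 to 102820 in normal samples, 31389 to 76510 in heterozygous samples and 83940 in the homozygous sample. Of 11 tested macrophage and microglia markers, 8 rose in heterozygous tumors, C1qa by 1.54 and Tyrobp by 1.34, and 2 rose in the homozygous tumor, Lyz2 and Fcgr3. The summed linear signal of the macrophage list was 1321 to 1617 in normal samples, 4988 to 9095 in heterozygous samples and 3603 in the homozygous sample. Of 9 tested endothelial markers 1, Tek, fell in heterozygous tumors and 0 rose, with Plvap at -0.05 and Emcn at -0.53, and the sums were 1198 to 1207, 889 to 1131 and 1393. Of 9 fibroblast and pericyte markers 3 (Dcn, Lum and Pdgfra) fell and 1 (Acta2) rose in heterozygous tumors, while Col1a2 had a difference of -0.58 and was not called.

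Of 4 tested melanotroph genes Pax7, a melanotroph transcription factor, rose in heterozygous tumors by 1.48, and Drd2 had a difference of 0.74 and was not called. Of 7 oligodendrocyte and brain markers only Mbp and Cnp were tested, with differences of 0.54 and 0.38 in heterozygous tumors, neither called. Of 7 tested housekeeping genes, none was called in any of the 3 comparisons. The part of any of these lists in the changes of the glial and posterior lobe genes was not tested.

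The genes whose log2 signal over the 7 samples was most like that of Slc1a3 (1426340_at), leaving out the 10 genes themselves, were Fzd1 (Pearson r = 0.994), Proser2 (0.992), Fxyd1 (0.992), Adcyap1r1 (0.992) and Mapk1ip1l (0.992). The 7 samples share 1 normalization and fall into normal and tumor samples, so a gene that differs steadily between these reaches a high r whatever the size of its change. Fzd1, a Wnt receptor, had a log2 difference of -1.67 in heterozygous tumors and -1.42 in the homozygous tumor. For Adcyap1r1, the receptor of the peptide PACAP, these were -2.03 and -1.45, and for Mapk1ip1l they were -0.38 and -0.28.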

How the data were processed

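Total RNA of 12 mouse pituitary samples was hybridized to Affymetrix Mouse Genome 430 2.0 arrays. The authors deposited log2 values made by Robust Multichip Average; the labels name Affymetrix Expression Console and the study's methods GeneSpring GX for this step. The methods' filter on absent calls was not applied, and scan dates were not used here. By GEO's platform annotation 34945 probe sets named 1 gene, 932 several and 9160 none, and 64 were controls. The 10 genes and all gene lists were chosen with earlier results of these data known.

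Probe sets that reached 5.743, the overall median, on 2 or more arrays were tested (24486). The arrays of each tumor pair were averaged, since they were more alike than other arrays of the group; this pairing is read from the values, while GEO's design text gives 1 mouse per array. Limma 3.58.1 in R 4.3.3 fitted all 3 groups in 1 linear model with empirical Bayes moderation (7 samples, 4 residual degrees of freedom before moderation) and Benjamini-Hochberg adjustment over all tested probe sets. The fit was tested on simulated data. Calls needed a fold change above 2 and an adjusted p below 0.05, the thresholds of the methods. For a gene with several tested probe sets the brightest stands for it. Named beside the 10 genes are up to 3 called genes with the largest change from each of the glial and folliculostellate lists. Also named are the 2 genes of each other list that were brightest in normal pituitary, Pomc, Xist, and the 5 genes most like Slc1a3. Eif2s3y, Prl, Sox2, Lcn2, Anxa1 and other listed genes outside this rule were named after their values were seen. Alternatives were no filter, a stricter filter, repeated quantile normalization, housekeeping centring, 12 separate arrays, the pair as a random block, the replicate block, each sample left out, Xist as a covariate, one-way analysis of variance, a mean-variance trend, the mean of a gene's probe sets, and, chosen after seeing the data, low-Xist heterozygous samples alone and high-Xist tumors alone. The number of arrays limits the precision.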

Additional observations from a re-analysis of the deposited data

Results flagged for a closer look

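Nkx2-1 in heterozygous sample 3-4 had a log2 signal of 4.94, apart from the other 3 heterozygous samples (5.22 to 5.27). Its gap to the nearest was a share of 0.847 of the group's range, over the critical value for 4 samples. Chance gives about 1 such value in every 20 groups, and all of these values lie under the median of all values.

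Oxt differed between the tumor genotypes, with the homozygous sample 1.938 above the heterozygous mean on the log2 scale (adjusted p = 0.0419 from limma, above 4 of 4 heterozygous samples). The adjusted p ranged from 0.000154 to 0.135 over the other settings.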

How the results depend on the processing

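Slc1a3 and Oxt stayed called lower in heterozygous tumors in all 18 other settings, and Slc1a3 in the homozygous tumor in all 17. For Slc1a3 the settings use 1426340_at, except the mean over its tested probe sets, with log2 differences of -2.02 and -1.66. The analysis of variance among the settings tests all groups at once and not a single comparison. Avp was called in heterozygous tumors in 17 of 18 settings and Aldh1a1 in 15 of 18. The member probe sets called lower in heterozygous tumors (6 as reported) numbered 4 with a stricter filter (at or over the overall median on at least 6 arrays) and 4 by analysis of variance. Those called lower in the homozygous tumor (3) numbered 1 with that filter, because both dimmer Slc1a3 probe sets were no longer tested. Those called higher in heterozygous tumors (0) ranged from 0 to 2 with 1 sample left out. Those called higher in the homozygous than in heterozygous tumors (1) ranged from 0 to 2 with 1 sample left out, and were 0 with the stricter filter, 0 with Xist as a covariate, 0 with high-Xist tumors alone and 2 with 12 separate arrays. With the replicate block on the arrays numbered 1 and 2 they were 3, and 1 was called lower (0 as reported). The array numbers do not pair the samples: deviations of same-numbered arrays correlated at 0.068, -0.023 and -0.0026, so the replicate block rests on a shared number only. That setting also uses 1 heterozygous pair and the homozygous pair as if their arrays were separate samples.

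S100b, which was not called, changed sign. In heterozygous tumors (0.09) it was -0.0055 with housekeeping centring and ranged from -0.079 to 0.225 with 1 sample left out. With the replicate block, which holds heterozygous sample 1-2 alone of that group, S100b was at 0.59, the highest value, and was not called. In the homozygous tumor (-0.20) it was 0.10 with Xist as a covariate. Housekeeping centring moved the median of all genes in heterozygous tumors by -0.09. The cause of these shifts was not tested. With 1 homozygous and 2 normal samples, no spread was measured in the one and little in the other.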
